A study of Homo sapiens with 12 samples.

Results

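DUSP1, DUSP2, DUSP5 and DUSP6 encode inducible MAP kinase phosphatases, and their transcripts were followed in THP-1 cells treated with 1 of 3 inhibitors of transcriptional kinases. The 4 genes were taken by name out of 57002 human genes with a named row in the count table, and each was measured by the row of its Ensembl transcripts with the highest total. THP-1 is a human acute myeloid leukaemia cell line of monocytic type. Cells were treated for 2 hours with AZ5576, known as an inhibitor of CDK9, with THZ531, known as an inhibitor of CDK12 and CDK13, with YKL5124, known as an inhibitor of CDK7, or with the vehicle DMSO, and the labels give no dose. All 4 groups received 1 mM 4-thiouridine in the last 10 minutes, and Drosophila S2 material (5%) was mixed into the purified RNA. Each group held 3 libraries of 3′ ends of polyadenylated RNA. The table's 3 columns read as DMSO are headed UT, a name that no label explains. Whether the 3 were grown as separate cultures is not in the labels, and a p-value here speaks of the spread among these 3 libraries, which may be technical.

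Inducible MAP kinase phosphatases remove phosphate from both the threonine and the tyrosine of the activation loop of MAP kinases and so switch the kinases off. Their genes are typically transcribed within minutes of MAP kinase activation and their mRNAs are known to be short-lived, which makes them a negative feedback on the pathway. DUSP1 is a nuclear phosphatase of p38, JNK and ERK. DUSP2, first described in activated lymphocytes, is also nuclear. DUSP5 is a nuclear phosphatase of ERK. DUSP6 is a cytoplasmic phosphatase of ERK and a widely used readout of ERK output.

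The promoters are shown because these genes are known for rapid induction, and the DUSP1 and DUSP2 windows hold letters of signal-responsive sites. The RefSeq table (GRCh38.p14) held 3 of the 4 genes, all but DUSP5. The 250 bases before the start are printed, each from the minus strand, with the motifs found in capitals.
DUSP1, chr5:172771196-172771445: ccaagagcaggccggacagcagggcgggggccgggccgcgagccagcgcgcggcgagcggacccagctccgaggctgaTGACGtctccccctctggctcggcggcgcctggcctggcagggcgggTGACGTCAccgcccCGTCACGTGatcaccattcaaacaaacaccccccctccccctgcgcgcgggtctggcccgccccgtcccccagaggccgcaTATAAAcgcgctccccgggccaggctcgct
DUSP2, chr2:96145441-96145690: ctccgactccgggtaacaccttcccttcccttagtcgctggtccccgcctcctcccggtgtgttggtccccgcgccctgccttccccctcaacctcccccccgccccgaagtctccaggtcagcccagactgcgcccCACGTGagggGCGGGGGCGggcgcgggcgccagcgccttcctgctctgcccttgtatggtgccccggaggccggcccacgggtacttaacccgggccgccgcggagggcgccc
DUSP6, chr12:89352502-89352751: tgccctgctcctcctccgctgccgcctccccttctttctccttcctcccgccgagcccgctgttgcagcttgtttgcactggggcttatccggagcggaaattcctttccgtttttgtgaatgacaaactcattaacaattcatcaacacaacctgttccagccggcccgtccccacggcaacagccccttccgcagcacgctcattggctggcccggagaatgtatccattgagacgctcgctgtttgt

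Motifs were searched on both strands from 250 bases before to 50 bases after the start, and shares are over 27305 RefSeq promoters of that length. DUSP1 held 1 cAMP response element (TGACGTCA, from -125 to -118 relative to the start), which 1.98% of promoters held. It held 4 copies of the shorter core TGACG, of which the full element contains 2 and the E-box overlaps 1, and 25% of promoters held that core. It also held 1 TATA box (TATAAA, from -30 to -25), a motif of 12% of promoters. DUSP2 held 1 EGR site (GCGGGGGCG, from -103 to -95), a motif of 5.02% of promoters. DUSP1 and DUSP2 each held 1 E-box (CACGTG), a motif of 7.43% of promoters. The DUSP6 window held none of these letters, and all 3 windows lacked the AP-1 site TGACTCA (4.92% of promoters) and the SRF CArG box (1.29%). GC content was 74.4% in the printed DUSP1 window, 74.0% in that of DUSP2 and 57.2% in that of DUSP6, beside a median of 58.0% over all promoters. The RefSeq start of DUSP6 is not the start of the Ensembl transcript measured here.

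All 4 genes are shorter than the median gene. In GENCODE v29 (GRCh38), DUSP1 (ENSG00000120129, minus strand) lies at chr5:172768090-172771195 and spans 3106 bases. DUSP2 (ENSG00000158050, minus strand) lies at chr2:96143166-96145440 and spans 2275 bases. DUSP5 (ENSG00000138166, plus strand) lies at chr10:110497838-110511544 and spans 13707 bases. DUSP6 (ENSG00000139318, minus strand) lies at chr12:89347232-89353271 and spans 6040 bases. The transcript measured had 3 exons for DUSP6 and 4 for each of the other genes. The median protein-coding gene tested spanned 31776 bases, and between 2.16% (DUSP2) and 26.2% (DUSP5) of the 11671 such genes were shorter.

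AU-rich elements, which many short-lived mRNAs carry, differed in number among the 4 transcripts. Over the whole 3′ untranslated region, ATTTA occurred 4 times in DUSP1 (672 bases), 3 times in DUSP2 (657 bases), 1 time in DUSP6 (2022 bases) and 0 times in DUSP5 (1118 bases). The nonamer TTATTTATT occurred 2 times in DUSP1 and 0 times in the other genes. As a reference, the last 500 bases held ATTTA in 62.5% and the nonamer in 3.22% of 10650 transcripts. In that shorter stretch ATTTA occurred 2 times in DUSP1, 3 times in DUSP2 and 0 times in DUSP5 and DUSP6. The nonamer occurred there 1 time in DUSP1 and 0 times in the other genes. The DUSP1 windows around its nonamers are shown from the minus strand with ATTTA in capitals, since only DUSP1 held the nonamer. Whether AU-rich elements bear on the levels of the 4 transcripts was not tested.
DUSP1, chr5:172768645-172768669: gctggtccttATTTATTTAacttca
DUSP1, chr5:172768377-172768401: aatataccttATTTAtttttgtgta

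Depth ranged from 5048370 to 12743630 human counts per library, and AZ5576 replicate 2 was the shallowest. Of 14 myeloid markers, 13 had a mean over 1 CPM, with summed levels of 2570 to 3060 CPM in a library, and CD14 was the exception. All 5 erythroid markers were at 0 in every library, as were CD3E, CD3G, CD2 and CD8A among T cell markers, whose summed level was 1.08 to 3.09 CPM. Levels below are CPM, the share of human counts, scaled by TMM, which centres the human genes, so that a rise or a fall is relative to other genes. In bulk RNA, fewer cells of a type and less RNA per cell cannot be told apart. Calls are Benjamini-Hochberg adjusted p-values under 0.05 from edgeR's quasi-likelihood test over 15831 genes. DUSP2, DUSP5 and DUSP6 passed the low-count filter (3 of the 4 genes) and DUSP1 did not.

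DUSP5 and DUSP6 were called in each comparison between inhibitors, while DUSP2 was not called between YKL5124 and AZ5576. Of all genes, 55.0% were called between THZ531 and AZ5576, 61.0% between THZ531 and YKL5124 and 15.8% between YKL5124 and AZ5576. Relative to DMSO, DUSP2, DUSP5 and DUSP6 fell under AZ5576 and under YKL5124, while under THZ531 DUSP5 rose 3.1-fold in the fit. DUSP2 fell 1.37-fold under THZ531, a call that was lost in 5 of 24 alternatives, DESeq2 among them (edgeR's adjusted p = 0.0282, DESeq2's 0.0872). DUSP6 was 1.24-fold higher under THZ531 by TMM, a difference that was absent when libraries were scaled by their total or by the fly counts. DUSP1 gave 0 counts in the 3 AZ5576 libraries and between 1 and 7 in each of the other 9.

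**Figure D1:**
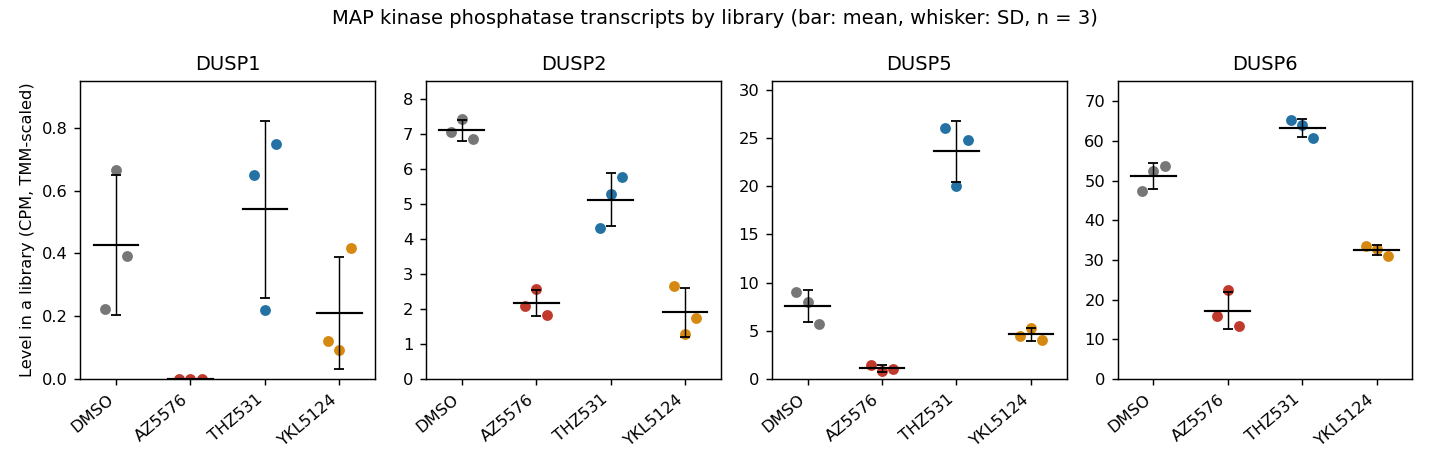
Level of each of the 4 transcripts (y axis, TMM-scaled CPM, a separate scale for each gene, starting at 0) in every library of the 4 groups (x axis). Points are libraries, bars are means and whiskers are SD (n = 3), and the AZ5576 libraries are lowest for DUSP1, DUSP5 and DUSP6, while those of AZ5576 and YKL5124 overlap for DUSP2.

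DUSP1, the phosphatase with the broadest choice of MAP kinases here, was too scarce to pass the filter, with 36 counts over the 12 libraries. Its counts were 3, 7 and 5 in the DMSO libraries, 0, 0 and 0 under AZ5576, 5, 2 and 7 under THZ531 and 1, 1 and 5 under YKL5124. Only the AZ5576 libraries held no read of it. Summed over a group, DMSO had 0.408 CPM without TMM (exact Poisson 95% interval 0.229 to 0.674), THZ531 0.536 (0.293 to 0.9) and YKL5124 0.226 (0.0908 to 0.465), and the intervals cover counting error only. A count of 0 in the AZ5576 group allowed up to 0.125 CPM by the same interval, or 0.102 CPM as 3 counts over the group. The lower limits of DMSO and THZ531 lay above both values, and that of YKL5124 lay below them. When the filter was lifted, edgeR's adjusted p was 0.0023 for AZ5576 against DMSO and 0.000444 for THZ531 against AZ5576. It was 0.0805 for YKL5124 against AZ5576, 0.767 for THZ531 against DMSO and 0.63 for YKL5124 against DMSO. That fit gave a far smaller edgeR adjusted p for DUSP6 under AZ5576 than the filtered fit (2.98e-60 beside 2.21e-13). The log2 changes were alike (-1.67 and -1.65), so its p-values for DUSP1 are not on the footing of the filtered ones. A difference of DUSP1 between DMSO and THZ531 or YKL5124 was not detectable at this depth.

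DUSP2, the nuclear phosphatase known from activated lymphocytes, stood at 7.04, 7.42 and 6.84 CPM in the DMSO libraries (7.1 ± 0.297, mean ± SD, n = 3). Under AZ5576 it stood at 2.08, 2.58 and 1.84 CPM (2.16 ± 0.377), and under YKL5124 at 2.67, 1.3 and 1.75 CPM (1.91 ± 0.695). Under THZ531 it stood at 4.3, 5.29 and 5.78 CPM (5.12 ± 0.755). The order of levels was therefore DMSO, THZ531, AZ5576 and YKL5124, and the last pair overlapped. These levels rest on 13 to 95 counts in a library. Of the 3 tested, DUSP2 had the largest fitted fall under YKL5124.

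DUSP5, the nuclear ERK phosphatase, stood at 9.04, 7.99 and 5.74 CPM in DMSO (7.59 ± 1.69, n = 3). Under THZ531 it stood at 26, 20 and 24.8 CPM (23.6 ± 3.21). Under AZ5576 it stood at 1.44, 0.792 and 1.09 CPM (1.11 ± 0.323), and under YKL5124 at 4.49, 5.31 and 4.08 CPM (4.63 ± 0.628). No group overlapped another, and the order was THZ531, DMSO, YKL5124 and AZ5576. How many of all genes separate so was not counted. The AZ5576 values rest on 18, 4 and 13 counts, while the THZ531 libraries held 181 to 232.

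DUSP6, the cytoplasmic ERK phosphatase, stood at 47.5, 52.4 and 53.8 CPM in DMSO (51.2 ± 3.31, n = 3). Under THZ531 it stood at 65.2, 64 and 60.8 CPM (63.3 ± 2.3). Under YKL5124 it stood at 33.5, 32.9 and 31.1 CPM (32.5 ± 1.21), and under AZ5576 at 15.8, 22.4 and 13.4 CPM (17.2 ± 4.63). The groups did not overlap and followed the order of DUSP5, and the share of all genes that separate so was not counted. DUSP6 had 113 to 684 counts in a library. AC024909.2 overlaps DUSP6 on the other strand, held 65 counts over the 12 libraries and shares its position, and the strand setting was not given in the sources used here.

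AZ5576 was compared with DMSO to ask what inhibition of CDK9 did to these transcripts. DUSP2, DUSP5 and DUSP6 all fell. Of the 15831 genes, 41.7% changed, 18.6% up and 23.1% down. DUSP5 fell by 2.67 on the log2 scale (SE 0.25, 95% interval -3.18 to -2.17, edgeR's adjusted p = 4.4e-10), a 6.37-fold fall. DUSP2 fell by 1.77 (SE 0.21, -2.20 to -1.33, adjusted p = 6.94e-08), a 3.4-fold fall. DUSP6 fell by 1.65 (SE 0.11, -1.87 to -1.43, adjusted p = 2.21e-13), a 3.14-fold fall. Of all genes tested, 0.493% had a lower fold change than DUSP5, 2.46% than DUSP2 and 3.1% than DUSP6. For each of the 3 genes, 3 of 3 AZ5576 libraries were lower than every DMSO library. The share of all genes that separate in this way was not counted.

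THZ531 was compared with DMSO in the same way for CDK12 and CDK13. DUSP5 and DUSP6 rose and DUSP2 fell, where 63.4% of genes changed, 30.4% up and 32.9% down. DUSP5 rose by 1.63 on the log2 scale (SE 0.15, 95% interval 1.33 to 1.93, edgeR's adjusted p = 5.54e-11), and 98.3% of genes had a lower fold change. DUSP6 rose by 0.31 (SE 0.09, 0.12 to 0.49, adjusted p = 0.0046), and DUSP2 fell by 0.46 (SE 0.18, -0.83 to -0.09, adjusted p = 0.0282). Of all genes tested, 69.4% had a lower fold change than DUSP6 and 31.3% than DUSP2. By library size alone, the DUSP6 value was 0.01 (adjusted p = 0.904), and with the fly counts as the scale it was -0.06 (adjusted p = 0.692). The call of DUSP2 was lost with DESeq2 (-0.45, adjusted p = 0.0872), with counts summed over the rows of each gene (-0.48, 0.0688), and on leaving out DMSO replicate 1 (-0.46, 0.0542), or DMSO replicate 2 (-0.43, 0.0644), or THZ531 replicate 1 (-0.38, 0.0968).

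YKL5124 was compared with DMSO for CDK7. DUSP2, DUSP5 and DUSP6 fell, where 20.8% of genes changed, 7.25% up and 13.5% down. DUSP2 fell by 1.93 on the log2 scale (SE 0.21, 95% interval -2.37 to -1.50, edgeR's adjusted p = 3.95e-08), a 3.82-fold fall, and 0.24% of genes had a lower fold change. DUSP5 fell by 0.72 (SE 0.18, -1.09 to -0.34, adjusted p = 0.00465), a 1.64-fold fall. DUSP6 fell by 0.66 (SE 0.10, -0.85 to -0.46, adjusted p = 5.32e-06), a 1.58-fold fall. Of all genes tested, 6.2% had a lower fold change than DUSP5 and 7.3% than DUSP6. The fall of DUSP5 missed the threshold without DMSO replicate 1 (-0.56, adjusted p = 0.0545).

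**Figure D2:**
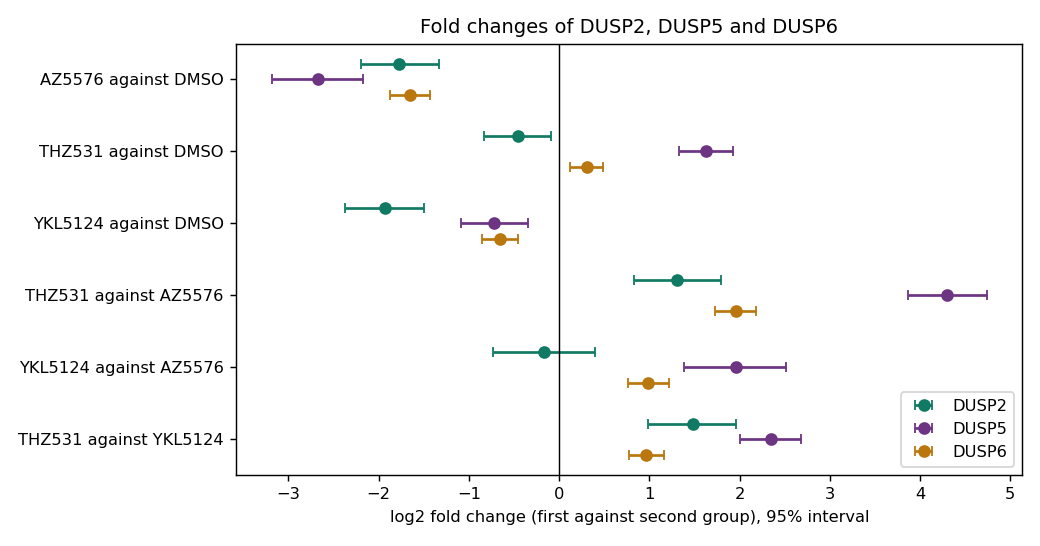
Fitted log2 fold changes (x axis) of DUSP2, DUSP5 and DUSP6 in the 6 comparisons of the groups (y axis), with 95% intervals as bars. The interval of DUSP2 for YKL5124 against AZ5576 (-0.73 to 0.40) is the one that spans 0, and DUSP5 in THZ531 against AZ5576 lies farthest from 0 at 4.30.

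The inhibitors were then compared with each other, where the DMSO libraries enter only through the filter, the scaling and the shared estimate of the spread. The 3 comparisons above share the same DMSO libraries. Between THZ531 and AZ5576, DUSP2, DUSP5 and DUSP6 were higher under THZ531, where 55.0% of genes differed, 27.1% higher and 27.8% lower. DUSP5 differed by 4.30 on the log2 scale (SE 0.21, 95% interval 3.87 to 4.74, edgeR's adjusted p = 8.85e-17), a 19.7-fold difference. DUSP6 differed by 1.96 (SE 0.11, 1.73 to 2.18, adjusted p = 1.22e-15) and DUSP2 by 1.31 (SE 0.23, 0.83 to 1.79, adjusted p = 1.91e-05). Between THZ531 and YKL5124 the 3 transcripts were again higher under THZ531, where 61.0% of genes differed, 30.5% higher and 30.5% lower. The log2 difference was 2.35 for DUSP5 (SE 0.16, adjusted p = 2.16e-13), 1.48 for DUSP2 (SE 0.24, adjusted p = 3.14e-06) and 0.96 for DUSP6 (SE 0.10, adjusted p = 7.5e-10).

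Between YKL5124 and AZ5576, DUSP5 and DUSP6 differed, while DUSP2 was not called. DUSP5 and DUSP6 were higher under YKL5124 than under AZ5576, where 15.8% of genes differed, 9.60% higher and 6.23% lower. The log2 difference was 1.96 for DUSP5 (SE 0.28, 95% interval 1.39 to 2.52, edgeR's adjusted p = 6.56e-06) and 0.99 for DUSP6 (SE 0.11, 0.76 to 1.22, adjusted p = 1.81e-07). For DUSP2 the difference was -0.17 (SE 0.28, -0.73 to 0.40, adjusted p = 0.746), and it was 0.04 without YKL5124 replicate 2. The interval of DUSP2 leaves differences of up to 0.73 on the log2 scale undecided.

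The scale decided whether 1 of these values was called, DUSP6 under THZ531, and no scale called it lower. With the fly counts as the scale, the median log2 change of all human genes moved to -0.17 under AZ5576, -0.37 under THZ531 and -0.07 under YKL5124, from 0.01, -0.00 and -0.00 by TMM. The fly share varied within DMSO. Replicate 3 held 1116910 fly counts beside 11820215 human counts, and replicate 1 held 1420584 beside 12518273. Whether the shifts of the median exceed this spread was not tested. The share of calls that were rises went from 44.7% to 10.3% under AZ5576, from 48% to 13.2% under THZ531 and from 34.9% to 21.1% under YKL5124. Between inhibitors it went from 49.4% to 29.8% for THZ531 against AZ5576, from 50% to 20.2% for THZ531 against YKL5124 and from 60.6% to 92.5% for YKL5124 against AZ5576. With that scale DUSP5 still rose under THZ531 (1.28, edgeR's adjusted p = 5.02e-14), DUSP2 fell (-0.82, adjusted p = 0.000243), and DUSP6 was at -0.06 and not called. By TMM the change of DUSP5 was larger (1.63) and its adjusted p was not as small (5.54e-11). Adjusted p-values of the fly-scaled fit are therefore not on the footing of those by TMM. Under AZ5576 the fly-scaled values were -1.93 for DUSP2, -2.83 for DUSP5 and -1.82 for DUSP6, and under YKL5124 they were -1.99, -0.76 and -0.73.

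**Figure D3:**
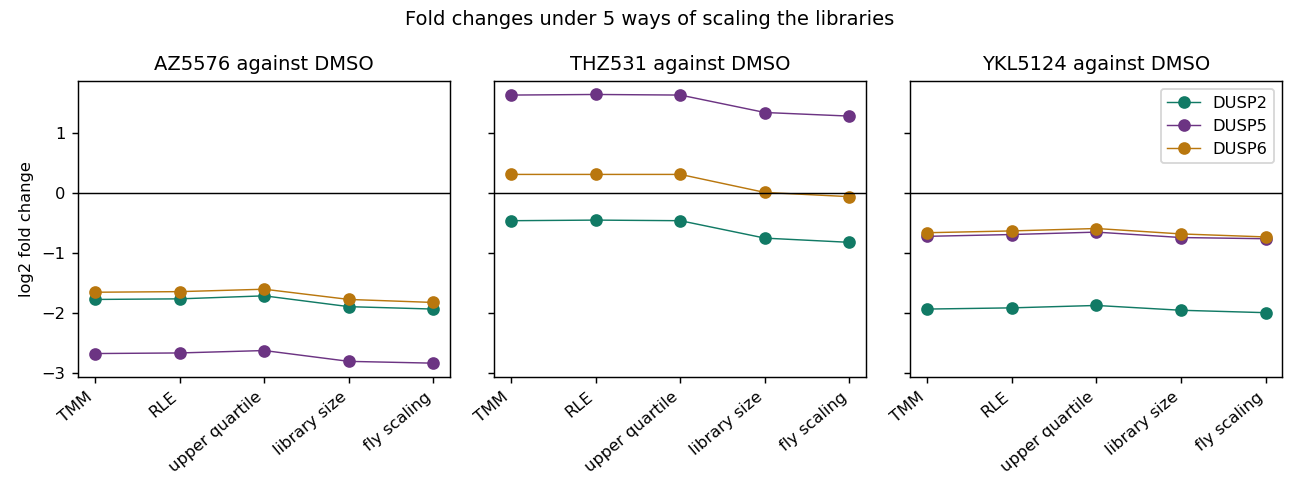
Log2 fold change against DMSO (y axis) of DUSP2, DUSP5 and DUSP6 under 5 ways of scaling the libraries (x axis), 1 panel for each inhibitor. DUSP6 under THZ531 is the value that crosses 0, from 0.31 by TMM to -0.06 with the fly counts.

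Ratios between these transcripts within a library do not depend on the scale. The log2 ratio of DUSP5 to DUSP6 counts was -2.39, -2.71 and -3.23 in the DMSO libraries, and -1.32, -1.68 and -1.29 under THZ531. It was -3.46, -4.82 and -3.63 under AZ5576 and -2.90, -2.63 and -2.93 under YKL5124. DUSP5 thus gained on DUSP6 in 3 of 3 THZ531 libraries (mean -1.43 beside -2.78 in DMSO) and lost on it in 3 of 3 AZ5576 libraries (mean -3.97), while YKL5124 overlapped DMSO (mean -2.82). The log2 ratio of DUSP2 to DUSP6 had a mean of -2.85 in DMSO, -2.97 under AZ5576, -3.64 under THZ531 and -4.15 under YKL5124. The THZ531 and YKL5124 libraries were all below the DMSO ones, and the AZ5576 libraries overlapped them. The log2 ratio of DUSP5 to DUSP2 had a mean of 0.0716 in DMSO, -0.997 under AZ5576, 2.21 under THZ531 and 1.33 under YKL5124. With 3 libraries against 3, an exact two-sided permutation test cannot go below 0.1. That value was reached wherever groups did not overlap, and over 30 such tests its adjusted value was 0.167.

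DUSP6 was the only one of the 4 with counts in more than 1 row, and its 5 rows come from its Ensembl transcripts and may share reads. Beside the main row (ENST00000279488, 5000 counts), the row of ENST00000308385 held 28.2%, 30.3% and 26.8% of the main row's counts in DMSO (mean 28.4%). It held 32.9% on average under AZ5576, 29.2% under THZ531 and 28.1% under YKL5124, and each of these groups overlapped DMSO. The row of ENST00000547140, a transcript that GENCODE lists as processed without a coding frame, had 26, 22 and 21 counts in DMSO, 5, 1 and 7 under AZ5576, 33, 37 and 25 under THZ531 and 13, 15 and 24 under YKL5124. Relative to the main row these were 4.06%, 3.99% and 3.07% in DMSO, 6.59%, 6.38% and 4.4% under THZ531 and 4.71%, 4.25% and 6.42% under YKL5124. All THZ531 and YKL5124 libraries were above the DMSO ones (exact permutation p = 0.1 for each, the smallest possible, adjusted 0.167). The AZ5576 libraries, at 2.53%, 0.885% and 4.35%, overlapped DMSO. In a fit with each row tested on its own (63375 rows), the ENST00000547140 row rose by 0.90 on the log2 scale under THZ531 (SE 0.27, edgeR's adjusted p = 0.00443) and fell by 2.09 under AZ5576 (SE 0.40, adjusted p = 0.000115). Its value under YKL5124 was -0.17 (SE 0.30, adjusted p = 0.776).

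**Figure D4:**
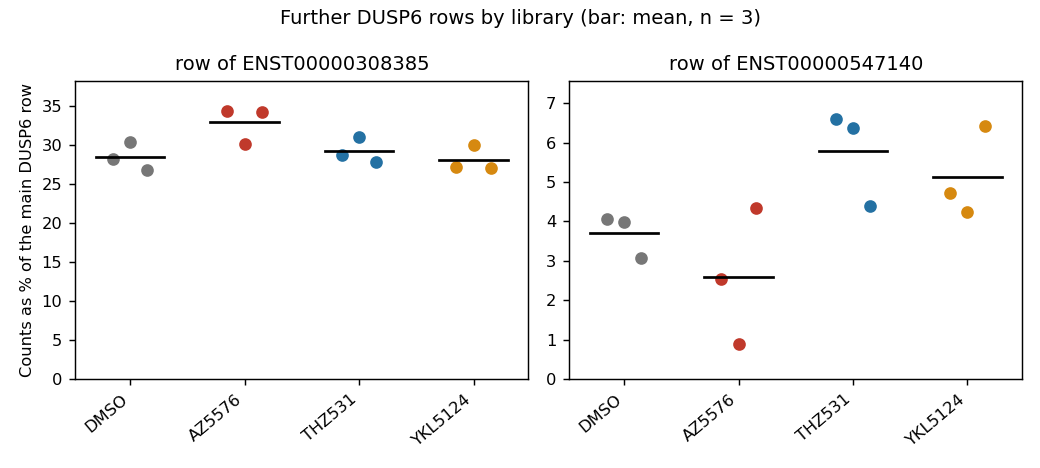
Counts of the rows of ENST00000308385 and ENST00000547140 as a percent of the main DUSP6 row (y axis, from 0, a separate scale for each panel) in every library of the 4 groups (x axis). Points are libraries and bars are means (n = 3), and in the right panel the 3 THZ531 and 3 YKL5124 libraries lie above the 3 DMSO libraries.

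The other MAP kinase phosphatases that changed under AZ5576 and YKL5124 were all lower. Of 6 such genes, 5 were tested (DUSP8 was not), and 4 fell under AZ5576 while 0 rose (also 0 at an unadjusted p under 0.05 and 0 by DESeq2), where 23.1% of all genes fell. The number that fell was 2 without AZ5576 replicate 3, and the median log2 change was -0.83 beside 0.01 over all genes. DUSP10, a phosphatase of p38 and JNK, fell by 1.53 (SE 0.20, edgeR's adjusted p = 2.26e-07), from 6.27 ± 0.866 to 2.2 ± 0.248 CPM (SD, n = 3). DUSP4, a nuclear phosphatase close to DUSP1, fell by 1.11 (SE 0.24, adjusted p = 0.000435), from 4.73 ± 0.678 to 2.34 ± 0.988 CPM. Under THZ531, 3 rose and 1 fell (median 0.40 beside -0.00), where 30.4% of all genes rose and 32.9% fell. DUSP4 rose by 1.41 (SE 0.18, adjusted p = 5.08e-08) to 12.6 ± 1.3 CPM, and DUSP16, a JNK phosphatase, fell by 2.48 (SE 0.42, adjusted p = 7.09e-06). With the fly counts as the scale, 1 of the 3 rises was called. Under YKL5124, 3 fell and 0 rose (also 0 at an unadjusted p under 0.05 and 0 by DESeq2; median -0.37 beside -0.00), where 13.5% of all genes fell. The number that fell ranged from 2 to 3 over 24 alternatives. DUSP10 was at -0.90 (SE 0.18, adjusted p = 0.000287) and DUSP4 at -0.93 (SE 0.23, adjusted p = 0.00355).

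Of 16 dual-specificity phosphatases outside the MAP kinase phosphatases, 11 were tested. Over all genes, 18.6% rose and 23.1% fell under AZ5576, 30.4% and 32.9% under THZ531 and 7.25% and 13.5% under YKL5124. Under AZ5576, 5 fell and 0 rose (also 0 at an unadjusted p under 0.05 and 0 by DESeq2; median -0.24). DUSP18 fell by 0.80 (SE 0.15, edgeR's adjusted p = 0.000126). Under THZ531, 4 rose and 3 fell (median 0.22), and with the fly counts as the scale 0 rose and 5 fell. DUSP3, a small phosphatase without the MAP kinase docking domain, fell by 0.91 under THZ531 (SE 0.07, adjusted p = 3.72e-12). DUSP11, a phosphatase of RNA 5′ ends, rose by 0.72 (SE 0.12, adjusted p = 1.01e-05), and its fly-scaled value was 0.36 (adjusted p = 0.0534). Under YKL5124, 2 fell and 0 rose (also 0 by DESeq2), namely DUSP3 (-0.36) and DUSP11 (-0.52), and the median was 0.08. The call of DUSP11 was lost without YKL5124 replicate 2 (-0.42, edgeR's adjusted p = 0.0598).

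**Figure D5:**
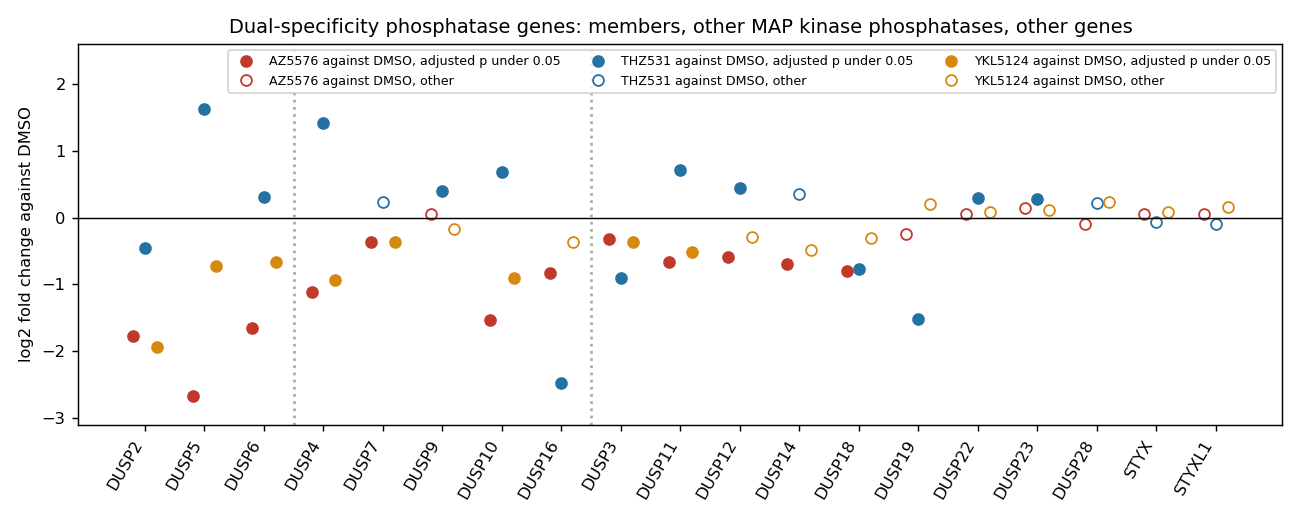
Log2 fold change against DMSO (y axis) of the dual-specificity phosphatase genes tested (x axis), with dotted lines between DUSP2, DUSP5 and DUSP6, the other MAP kinase phosphatases and the remaining genes. Filled points passed an adjusted p of 0.05 and open points did not, and DUSP5 under THZ531 (1.63) and under AZ5576 (-2.67) are the highest and the lowest points plotted.

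For the kinases that the phosphatases act on, and for the pathway genes that follow, the shares over all genes to read the counts against were 18.6% higher and 23.1% lower under AZ5576, 30.4% and 32.9% under THZ531 and 7.25% and 13.5% under YKL5124. Of 14 MAP kinase genes, 11 were tested, with 3 higher and 2 lower under AZ5576 (median 0.04), 4 higher and 4 lower under THZ531 (median 0.08) and 2 higher and 2 lower under YKL5124 (median -0.06). With the fly counts as the scale these became 1 and 2, 1 and 5, and 0 and 2. NLK, an atypical MAP kinase, fell by 0.77 under AZ5576 (SE 0.12, edgeR's adjusted p = 6.75e-06) and by 1.63 under THZ531 (SE 0.14, adjusted p = 1.5e-11). MAPK6, also atypical, fell by 0.58 under AZ5576 (adjusted p = 2.48e-07) and by 0.28 under YKL5124 (adjusted p = 0.00524). With counts summed over the rows of each gene, the YKL5124 value of MAPK6 was -0.18 and not called (adjusted p = 0.0576). MAPK8, which encodes JNK, rose by 0.91 under THZ531 (adjusted p = 1.72e-08), and MAPK9 rose by 0.49 under YKL5124 (adjusted p = 0.00773), the latter not with the fly counts as the scale (0.42, adjusted p = 0.0634). Of 7 MAP kinase kinases, all tested, 2 rose and 1 fell under AZ5576 (median 0.29), 2 rose and 2 fell under THZ531 (-0.08) and 0 rose and 1 fell under YKL5124 (0.03), and 0 and 1, 0 and 4, and 0 and 1 with the fly counts. MAP2K2, which activates ERK, was at 0.30 under AZ5576 and 0.32 under THZ531, both called by TMM, and at 0.11 and -0.05 with the fly counts as the scale. MAP2K3, an activator of p38, was at 0.34 under AZ5576 by TMM (adjusted p = 0.00269) and at 0.15 by the fly counts, and MAP2K6, which also activates p38, fell by 1.03 under THZ531. MAP2K7, an activator of JNK, fell by 0.29 under YKL5124 (adjusted p = 0.0104), and MAP2K5 was at 0.31 (adjusted p = 0.0708). The call of MAP2K7 was lost without DMSO replicate 1 (adjusted p = 0.0547) or DMSO replicate 3 (0.0659). It was also lost without YKL5124 replicate 1 (0.0548) or YKL5124 replicate 2 (0.0561).

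Upstream, MAP3K8 changed in the same direction as DUSP5 under each inhibitor. MAP3K8 encodes the kinase that links Toll-like receptors to ERK activation, and stood at 9.76 ± 0.321 CPM in DMSO, 1.97 ± 0.0406 under AZ5576, 34 ± 2.09 under THZ531 and 3.75 ± 0.425 under YKL5124 (SD, n = 3). It fell by 2.31 on the log2 scale under AZ5576 (SE 0.17, edgeR's adjusted p = 4.19e-12), rose by 1.79 under THZ531 (SE 0.11, adjusted p = 6.16e-15) and fell by 1.38 under YKL5124 (SE 0.15, adjusted p = 2.1e-08). Of 18 MAP kinase kinase kinases, 15 were tested, with 2 higher and 4 lower under AZ5576 (median -0.14), 3 higher and 7 lower under THZ531 (-0.08) and 1 higher and 2 lower under YKL5124 (-0.07). With the fly counts as the scale these became 0 and 8, 1 and 9, and 0 and 2. TAOK3 fell by 1.68 under THZ531 (adjusted p = 4.56e-18), MAP3K3 fell by 0.39 under AZ5576 (adjusted p = 0.00151) and MAP3K1 fell by 0.50 under YKL5124 (adjusted p = 5.69e-06). Of 17 genes of the step from RAS to RAF, all tested, 3 rose and 2 fell under AZ5576 (0.05), 6 rose and 5 fell under THZ531 (0.11) and 4 rose and 2 fell under YKL5124 (-0.01). With the fly counts as the scale these became 0 and 7, 1 and 8, and 0 and 0. SOS1, an exchange factor of RAS, fell by 2.44 under THZ531 (adjusted p = 3.16e-13), as did RASA2, which switches RAS off, by 1.85 (adjusted p = 4.67e-08). GRB2 and NRAS were each at 0.39 under AZ5576, and BRAF at 0.41 and PTPN11 at 0.28 under YKL5124, and these 4 values were called by TMM and not with the fly counts as the scale.

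Downstream of the MAP kinases lie the kinases that they activate. Of 11, 10 were tested, with 1 higher and 0 lower under AZ5576 (median 0.06), 3 higher and 4 lower under THZ531 (0.05) and 0 called under YKL5124 (0.06, 1 higher and 1 lower at an unadjusted p under 0.05, and 0 by DESeq2). With the fly counts as the scale these became 1 and 1, 1 and 5, and 0 and 0. The number higher under AZ5576 ranged from 1 to 4 over 24 alternatives, the highest with upper quartile factors, and the number lower ranged from 0 to 3. RPS6KA5, a nuclear kinase that acts on chromatin, rose by 0.63 under AZ5576 (SE 0.13, edgeR's adjusted p = 0.000339), and RPS6KA2 was at 0.62 (adjusted p = 0.0515). Under THZ531, RPS6KA5 fell by 1.74 (SE 0.19, adjusted p = 2.3e-09). MKNK2, which acts on the cap-binding protein, rose by 0.66 under THZ531 (adjusted p = 1.91e-09). MAPKAPK2, a target of p38 that stabilises AU-rich mRNAs, was at 0.56 by TMM (adjusted p = 2.16e-09) and at 0.20 with the fly counts (adjusted p = 0.153).

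Of 15 other inducible feedback and output genes of ERK, 9 were tested. Under AZ5576, 4 fell and 0 rose (also 0 at an unadjusted p under 0.05 and 0 by DESeq2; median -0.71). Under THZ531, 3 rose and 3 fell (-0.28), and under YKL5124 1 fell and 0 rose (-0.09; 0 rises also at an unadjusted p under 0.05 and by DESeq2). SPRY2, a feedback inhibitor of receptor signalling, stood at 10.9 ± 1.11 CPM in DMSO (SD, n = 3), fell to 5.06 ± 0.957 under AZ5576 (log2 change -1.06, SE 0.16, edgeR's adjusted p = 2.58e-06) and rose to 20.6 ± 1.54 under THZ531 (0.91, SE 0.13, adjusted p = 3.25e-07). IER3, an early response gene, rose from 1.97 ± 0.381 to 22 ± 1.79 CPM under THZ531 (3.50, SE 0.17, adjusted p = 6.39e-17) and fell to 0.515 ± 0.0394 under YKL5124 (-1.88, SE 0.35, adjusted p = 0.000147). IER3 also fell under AZ5576, to 1.02 ± 0.499 CPM (-1.12, SE 0.31, adjusted p = 0.00475). An antisense gene overlaps IER3, so its counts are uncertain in this respect. FOSL1, an AP-1 subunit, fell by 1.71 under AZ5576 (SE 0.40, adjusted p = 0.000921), and its value under YKL5124 was -0.83 (adjusted p = 0.0911).

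Over genes averaging 10 CPM or more, those most like each transcript were found by Pearson's r of log2 CPM over the 12 libraries, as a description in which all genes share the libraries and their scaling. For DUSP5 (7932 candidates) they were SESN2 (r = 0.987), AUNIP (0.986) and PLEKHA3 (0.984), and SESN2 had log2 changes of -1.67 under AZ5576, 1.26 under THZ531 and -0.57 under YKL5124. For DUSP6 (7931 candidates) they were MCL1 (0.989), EPC2 (0.984) and PIM3 (0.98), and MCL1, an inhibitor of apoptosis, had changes of -0.90, 0.15 and -0.40. For DUSP2 they were SMG5 (0.978), HOXA13 (0.96) and CDC25A (0.956), and CDC25A, a cell-cycle phosphatase, had changes of -1.31, -0.38 and -1.36. Between the phosphatases, r was 0.92 for DUSP5 and DUSP6, 0.75 for DUSP2 and DUSP6 and 0.62 for DUSP2 and DUSP5.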

How the data were processed

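The table that the authors deposited holds raw read counts for 295100 rows in 12 libraries of THP-1 cells. Per the submitters' processing notes, bcl2fastq 2.17.1.14, Trim Galore 0.6.5 and edgeR 3.32.1 were used, with the builds hg38 and dm6. Libraries were made with a QuantSeq forward kit for 3′ ends, per the labels' protocols. The aligner, counter, annotation and strand setting were not given in the sources used here. Of its columns, 9 match the titles of inhibitor samples. The other 3 are named UT, which no label holds. They were read as DMSO since every sample's labels, DMSO included, point to this table, and DMSO replicate numbers are those of the columns. Only total counts were used, and newly made RNA was not studied.

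Gene names came from GENCODE v29 and covered 251529 of the 256726 human rows. Another 5197 had no name (0.655% to 0.719% of human counts) and were left out. The row with the highest total stood for a gene, and 94 genes (total 120 or more) that repeated another gene's counts in each library were dropped. Fly rows (38374) gave 633336 to 1420584 counts per library and were used for the fly scaling alone. Tests used edgeR 4.0.16 in R 4.3.3 (limma 3.58.1): filterByExpr with a minimum count of 10, TMM, and 1 quasi-likelihood fit over 12 libraries with no term but group. P-values were adjusted by Benjamini-Hochberg over 15831 genes. Standard errors are |log2 fold change| over the root of F, folds are 2 to the power of the fitted log2 change, and intervals (95%) use the fit's degrees of freedom. Log2 CPM used a prior count of 2. Within-library ratios were compared by exact permutation. Each replicate pair differed by more than counting noise (chi-square per gene 1.73 to 4.97).

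The genes named are the 4 phosphatases, the 2 of each of 8 pathway lists with the smallest adjusted p against DMSO, and the 3 most similar genes of at least 10 CPM. The 4 phosphatases and the lists were chosen with earlier results of these data known, and the AU-rich motifs after the other motifs. Alternatives were other scalings (RLE, upper quartile, library size, fly counts), other count filters, DESeq2 1.42.0, rows summed or tested singly, the 6 compared libraries alone, a replicate block and leaving out each library.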

Additional observations from a re-analysis of the deposited data

How the results depend on the processing

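Over 24 alternatives, 423 of 432 values of DUSP2, DUSP5 and DUSP6 kept their direction and their side of the threshold, 7 missed it and 2 reversed. The reversed values were DUSP6 under THZ531 with the fly counts as the scale (-0.06) and DUSP2 in YKL5124 against AZ5576 without YKL5124 replicate 2 (0.04, in a range of -0.43 to 0.04 over the libraries left out), and MAP2K2 under THZ531 reversed to -0.05 with the fly counts. None of these reversed values was called. Under THZ531, the number of the 3 phosphatases called higher went from 2 to 1 by library size and by the fly counts, and the number called lower went from 1 to 0 with summed rows and with DESeq2 and ranged from 0 to 1 when each library was left out. Genes called higher against DMSO went from 2948 to 1327 by library size and 517 by the fly counts under AZ5576, from 4818 to 2193 and 1116 under THZ531, and from 1148 to 530 by the fly counts and 2020 by upper quartile factors under YKL5124. Genes called higher went from 4834 to 2366 by library size and 1677 by the fly counts in THZ531 against YKL5124, from 4297 to 2300 by the fly counts in THZ531 against AZ5576, and from 1519 to 2391 by library size in YKL5124 against AZ5576. Genes called lower in YKL5124 against AZ5576 went from 987 to 273 by library size, 147 by the fly counts, 641 with only the 6 libraries compared, 565 with rows on their own and 625 with DESeq2, and ranged from 511 (without YKL5124 replicate 2) to 1183 (without DMSO replicate 2). The cause of these shifts was not tested. Leaving out libraries for the within-library ratios and the DUSP6 row shares was chosen after seeing the data. DUSP1 (36 counts) and DUSP5 under AZ5576 (4 to 18 counts in a library) are limited by depth.

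Same-numbered libraries did not deviate together (correlations -0.10 to 0.07 over 18 pairs, beside -0.09 to 0.11 over 36 pairs of different numbers, and 2 of 12 libraries closest to their own number). No pairing by number was seen. This cannot exclude that libraries were prepared in matched sets, since the DMSO numbers are those of the columns and are tied to no title. With the replicate number as a block, 3 of the phosphatases were lower under AZ5576 and 3 under YKL5124, 2 were higher and 1 lower under THZ531, as without it, and 2919 genes were higher and 3600 lower under AZ5576, 4794 and 5167 under THZ531, and 1107 and 2108 under YKL5124.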
